A study of Gossypium hirsutum with 18 samples.

Results

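WER-type MYB genes of upland cotton (Gossypium hirsutum) were compared between ovules of Xu142fl, a fuzzless and lintless mutant, and ovules of Xu142, the fiber-bearing line it derives from. A gene was counted as WER-type when its deposited protein name, the best Swiss-Prot match, was transcription factor WER, also known as WEREWOLF or MYB66 of Arabidopsis. This gave 4 genes out of 11153 that appear in the deposited tables: Gh_D04G061400, Gh_A05G364100, Gh_A11G000100 and Gh_A05G412300. All 4 carried the Myb DNA-binding domain in the files, and the name marks the closest described protein, not a tested function. The 18 libraries fall into 6 groups of 3, made by the genotypes Xu142fl and Xu142 at -1, 0 and 1 day post-anthesis (DPA, days counted from flower opening). All ovules were untreated, and the labels say nothing on separate plants, so that p-values measure only the spread between these libraries, which may be technical. By its title the study is about H3K27me3, a repressive histone mark, at the start of fiber growth, whereas the values used here are of gene expression.

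As background, WER is an R2R3-type MYB transcription factor of the Arabidopsis root epidermis. It joins a bHLH partner (GLABRA 3 or its relative) and the WD-repeat protein TTG1 in a complex that turns on GLABRA 2 and keeps a cell hairless, and the same complex turns on CPC, a small MYB that moves to neighbouring cells and competes with WER for the bHLH partner. In the shoot the closely related MYB GLABRA 1 takes the place of WER and starts leaf hairs. Cotton fibers are single-cell outgrowths of the ovule epidermis that begin around anthesis, which is why MYBs of this kind are followed in fiber initiation.

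Each day has a deposited table of its own that holds only genes the authors had called, with an adjusted p under 0.05 and a log2 fold change of at least 1 in size. A member that is listed therefore had to differ, and its call is given as a description. A member that is not listed may have been equal in both genotypes or short of these criteria, and the table alone cannot tell these apart. Values are normalised reads, that is, read counts divided by 1 factor per library. At -1 DPA a library had between 210953 and 257804 reads in listed genes, at 0 DPA between 130502 and 346187, and at 1 DPA between 2833696 and 6388114. Full library depths are unknown. The tables were normalised separately, so levels are compared within a day. Log2 ratios are Xu142fl over Xu142, from the group means, with the standard error (SE). These are whole ovules, in which fewer cells of a type and less RNA per cell cannot be told apart.

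WER-type genes made up 1 listed gene at -1 DPA, 0 at 0 DPA and 4 at 1 DPA, which is 5 of 12 possible listings. The days are not on a par, since the cut of 1 applies to the deposited fold change. At the median this was 0.679 of the log2 ratio at -1 DPA, 0.655 at 0 DPA and 0.967 at 1 DPA. A log2 ratio little above 1 could thus be listed at 1 DPA and miss the cut on the earlier days. At -1 DPA the listed member was higher in Xu142fl, where 1.50% of the 58161 tested genes were listed and 0.824% were listed as higher, beside 0.676% as lower. At 0 DPA 2.38% of the 57326 tested genes were listed, 0.876% as higher and 1.51% as lower. At 1 DPA 2 members were higher and 2 lower in Xu142fl, where 17.6% of the 61474 tested genes were listed, 5.70% as higher and 11.9% as lower.

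Gh_D04G061400 changed direction between the days: it was higher in Xu142fl the day before flower opening and lower the day after. It lies on chromosome D04 from 9378299 to 9379036 on the plus strand, on the authors' build, which is not given in the sources used here. At -1 DPA it had 97.5, 121 and 90.2 normalised reads in the Xu142fl libraries, against 29.9, 33.8 and 27.9 in the Xu142 libraries. Every Xu142fl library was thus far above every Xu142 library. The means were 103 ± 16.1 in Xu142fl and 30.5 ± 2.996 in Xu142 (SD, n = 3 each), and the log2 ratio was 1.75 ± 0.15 (SE). The adjusted p in the authors' deposited table was 2.91e-10. With DESeq2 size factors taken from the listed genes the log2 ratio was 0.64 and did not pass. At 1 DPA the order was turned, with 89.3, 51.2 and 57.3 normalised reads in the Xu142fl libraries, against 209, 161 and 161 in the Xu142 libraries. Again the groups did not overlap. The means were 66.0 ± 20.5 in Xu142fl and 177 ± 27.5 in Xu142 (SD, n = 3 each), with a log2 ratio of -1.43 ± 0.29 (SE) and an adjusted p of 2.85e-07 in the authors' deposited table.

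**Figure D1:**
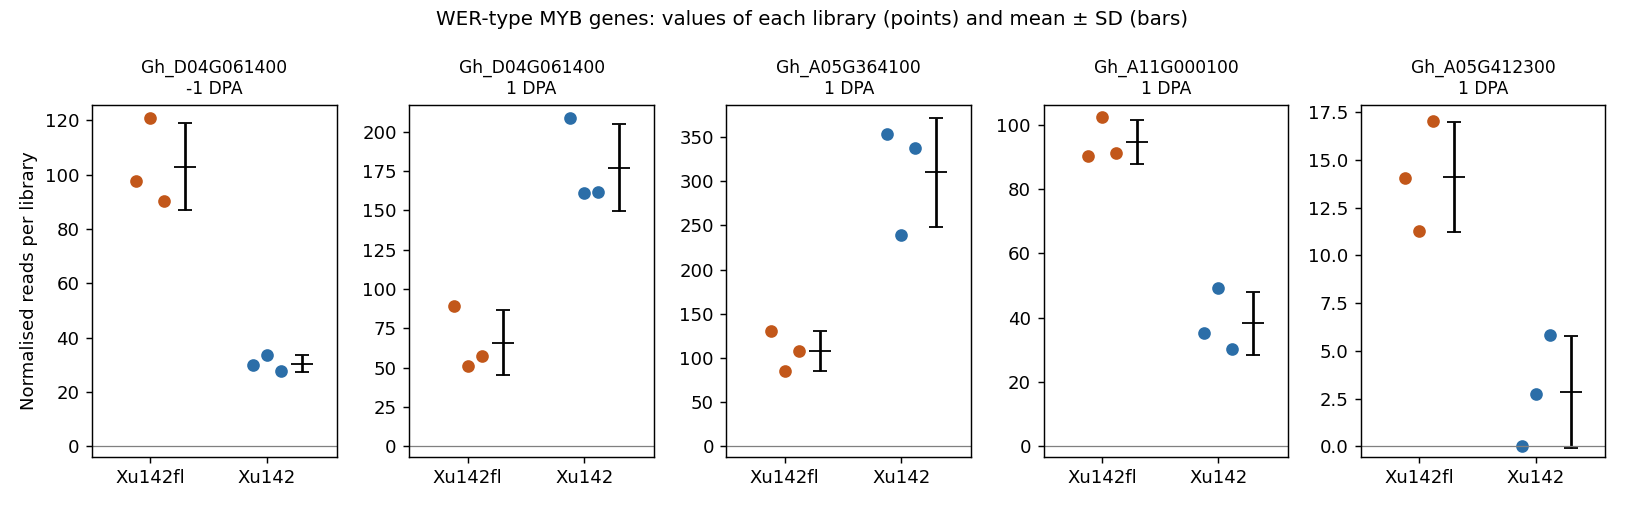
Normalised reads (vertical axes, from 0, a scale for each panel) of the WER-type genes on each day they are listed, with a point for each library and bars for the mean ± SD of 3 libraries, Xu142fl left and Xu142 right. Gh_D04G061400 is higher in Xu142fl at -1 DPA and lower at 1 DPA, and in all 5 panels the groups do not overlap.

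The difference between these ratios was -3.19 on the log2 scale in an interaction fit over the 12 libraries of both days and the 700 genes listed on both (edgeR quasi-likelihood, Benjamini-Hochberg adjusted p = 2.48e-07), and the genotypes were separated on both days in all 12 libraries. Since listing with opposite directions already requires a difference, this fit gives its size and is no independent test. In the same fit 37.6% of the 700 genes passed. A turn of this kind was uncommon among the genes listed on both days. These include 167 with a group at 0 reads, so the counts do not describe only genes read in both genotypes. Of the 700, 404 were higher in Xu142fl on both days, 268 were lower on both, 14 were higher at -1 DPA and lower at 1 DPA, and 14 were lower at -1 DPA and higher at 1 DPA. Gh_D04G061400 was 1 of the 14 listed as higher at -1 DPA and lower at 1 DPA. Of the 9 genes with an annotated Myb domain listed on both days, 2 were higher on both days, 6 were lower on both, and Gh_D04G061400 was the remaining 1. Genes of the family without that annotation are left out, such as Gh_D06G015200 (named MYB44, log2 ratios of 3.11 and 2.85) and Gh_A12G134600 (named LHY, -3.99 and -2.94). Gh_D04G061400 was not listed at 0 DPA, so its course between the days is not known.

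**Figure D2:**
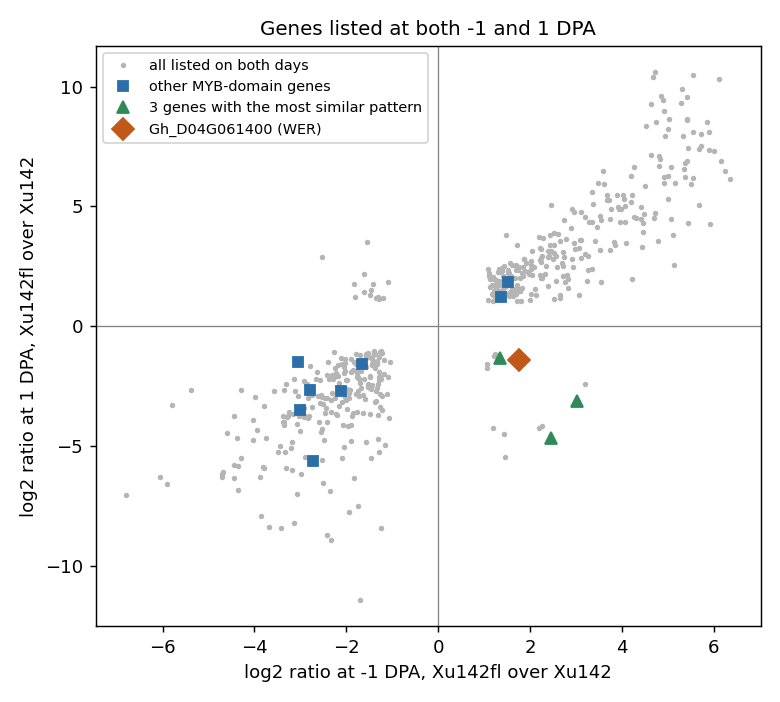
Log2 ratios, Xu142fl over Xu142, at -1 DPA (horizontal) and 1 DPA (vertical) for 533 of the 700 genes listed on both days (the other 167 had a group at 0 reads, so that no ratio can be drawn). Most points lie in the quadrants of equal direction, and the WER gene Gh_D04G061400 lies at lower right, apart from the other genes with an annotated Myb domain.

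Gh_A05G364100, the most abundant member, moved with Gh_D04G061400 at 1 DPA. It lies on chromosome A05 from 97923919 to 97924656 on the minus strand. It had 130.5, 85.1 and 108 normalised reads in the Xu142fl libraries, against 354, 239 and 337 in the Xu142 libraries. The highest Xu142fl library stayed below the lowest Xu142 library. The means were 108 ± 22.7 in Xu142fl and 309.8 ± 62.1 in Xu142 (SD, n = 3 each), and the log2 ratio was -1.52 ± 0.24 (SE), with an adjusted p of 2.18e-10 in the authors' deposited table. With scaling factors taken from the listed genes themselves, which raise all log2 ratios at 1 DPA by about 1.2 (1.20 and 1.24), the fall of both genes no longer passed. Such factors take most genes as unchanged, whereas the listed genes are all called ones, 7288 lower and 3505 higher on that day. Refits with them show a dependence on the scaling and cannot decide the direction.

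Gh_A05G364100 and Gh_D04G061400 had the same deposited span, 738 bases, and the same deposited length, 660 bases, which leaves 78 bases of the span outside the counted length. The letters A and D name the subgenomes of the cotton tetraploid. Whether the genes are homeologs was not checked by sequence, and reads of near-identical copies could be split between them, since the counting is not given in the sources used here. Within each library at 1 DPA, Gh_A05G364100 held 59.4%, 62.4% and 65.3% of the reads of both in Xu142fl, against 62.9%, 59.7% and 67.6% in Xu142. The exact binomial 95% intervals of single libraries, which cover counting error only, ran from 52.5% to 72.0%. The mean share was 62.4% ± 2.97 in Xu142fl and 63.4% ± 3.97 in Xu142 (SD, n = 3 each), a difference within the spread of the replicates (two-sided exact permutation test, p = 0.70, where 0.10 is the smallest p that 3 against 3 allows). At -1 DPA Gh_A05G364100 was not listed, so this share is not known there.

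The other members, Gh_A11G000100 and Gh_A05G412300, were higher in Xu142fl at 1 DPA. Gh_A11G000100, close to the end of chromosome A11 (28451 to 29254, plus strand), had 90.3, 102 and 91.3 normalised reads in the Xu142fl libraries, against 35.2, 49.1 and 30.4 in the Xu142 libraries. The Xu142fl libraries lay close together, all above the highest Xu142 library. The means were 94.7 ± 6.76 in Xu142fl and 38.2 ± 9.72 in Xu142 (SD, n = 3 each), with a log2 ratio of 1.31 ± 0.22 (SE) and an adjusted p of 3.20e-05 in the authors' deposited table. Its span of 804 bases exceeds its deposited length of 725 bases by 79 bases, nearly the 78 of the pair above.

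Gh_A05G412300 was close to absent from Xu142 and rested on few reads. It had 14, 11 and 30 reads in the Xu142fl libraries, against 0, 2 and 5 in the Xu142 libraries. After normalisation this is 14.0, 11.3 and 17.0 in Xu142fl, against 0, 2.73 and 5.85 in Xu142. The means were 14.1 ± 2.87 in Xu142fl and 2.86 ± 2.93 in Xu142 (SD, n = 3 each), and the log2 ratio of 2.30 ± 0.87 (SE) had an adjusted p of 0.0157 in the authors' deposited table. A refit of the recovered reads did not pass (edgeR quasi-likelihood, Benjamini-Hochberg adjusted p = 0.0631, with a range of 0.00707 to 0.349 among the other settings), and without Xu142 replicate 3 the ratio was 3.45. It lies on chromosome A05 from 108074679 to 108082704 on the plus strand, a span of 8026 bases for a deposited length of 855 bases, unlike the compact genes above.

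Per kilobase of deposited length, the order of the members' means at 1 DPA differed between the genotypes. In Xu142fl Gh_A05G364100 stood at 163 ± 34.4 normalised reads per kilobase, Gh_A11G000100 at 131 ± 9.32, Gh_D04G061400 at 99.9 ± 31.0 and Gh_A05G412300 at 16.5 ± 3.36 (SD, n = 3). Neighbours among the first 3 overlapped in Xu142fl: their libraries covered 129 to 198, 125 to 141 and 77.6 to 135. Gh_A05G412300 stood apart below them. Xu142fl replicate 1 had the same order as the Xu142 means, with 198 for Gh_A05G364100, 135 for Gh_D04G061400 and 125 for Gh_A11G000100. In Xu142fl replicates 2 and 3 Gh_A11G000100 was above Gh_D04G061400, so the order was not the same in all Xu142fl libraries. In Xu142 Gh_A05G364100 stood at 469 ± 94.0, Gh_D04G061400 at 268 ± 41.7, Gh_A11G000100 at 52.7 ± 13.4 and Gh_A05G412300 at 3.34 ± 3.42 (SD, n = 3), and here no neighbours in the order overlapped. Summed over the 4 genes, the level was 410.4 ± 57.8 per kilobase in Xu142fl and 794 ± 112 in Xu142 (SD, n = 3 each). Gh_A05G364100 and Gh_D04G061400 together made up 64.1% of that sum in Xu142fl and 92.9% in Xu142. The sum is a description that covers listed genes only. Its log2 ratio was -0.95 with the authors' factors, and 0.23 and 0.26 with TMM and DESeq2 factors from the listed genes. The latter take most of these called genes as unchanged, so they cannot decide the direction of the sum.

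**Figure D3:**
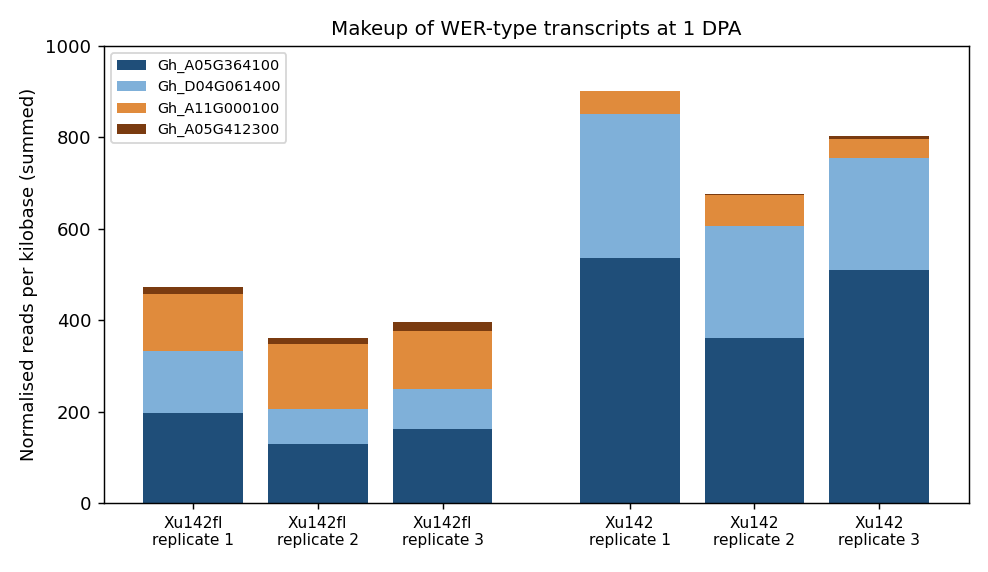
Normalised reads per kilobase of the 4 WER-type genes, stacked for each library at 1 DPA, Xu142fl left and Xu142 right. With the authors' factors the Xu142fl stacks are lower (with factors from the listed genes the log2 ratio of the sums turns to 0.23 and 0.26), and Gh_A11G000100 takes a larger part of them, 131 ± 9.32 per kilobase in Xu142fl and 52.7 ± 13.4 in Xu142 (SD, n = 3 each).

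Lists of genes that act with WER in Arabidopsis, or carry the name of such a gene's family, had members listed at 1 DPA and on no other day. The cut reached smaller log2 ratios at 1 DPA than on the other days, so these counts are not on a par. Across 5 lists of partners, inhibitors, related MYBs, targets and upstream regulators, 9 genes were listed at 1 DPA, 5 higher and 4 lower in Xu142fl. Their median log2 ratio was 1.05, beside -1.29 over all listed genes. With a split of 5 to 4 the median is the lowest ratio of the higher genes, here that of GLABRA 3. It therefore measures no shift of these genes. The background on that day was 5.70% of tested genes listed as higher and 11.9% as lower. How many genes of these lists the authors tested is not known, so that no share of them can be given.

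The partners were split. The bHLH factor GLABRA 3 (Gh_D08G203800), which binds WER-type MYBs, had 1004, 1108 and 1006 normalised reads in Xu142fl, against 475, 513 and 517 in Xu142. Its libraries were far apart between the genotypes and tight within them, with a log2 ratio of 1.05 ± 0.062 (SE) and an adjusted p of 3.68e-14 in the authors' deposited table. The WD-repeat partner TTG1 (Gh_D08G116300) had 278, 218 and 196 normalised reads in Xu142fl, against 474, 547 and 454 in Xu142. Its log2 ratio was -1.09 ± 0.17 (SE; adjusted p of 1.83e-08 in the authors' deposited table), and with scaling factors from the listed genes it turned to 0.10 and 0.14.

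The listed inhibitor was CPC (Gh_A07G148900), which competes for the bHLH partner. It had 52.2, 28.7 and 42.5 normalised reads in Xu142fl, against 25.9, 5.46 and 11.7 in Xu142. The groups came close, at 28.7 and 25.9, and the log2 ratio was 1.52 ± 0.65 (SE) with an adjusted p of 0.0108 in the authors' deposited table. The refit did not pass (edgeR quasi-likelihood, Benjamini-Hochberg adjusted p = 0.0868, with a range of 0.00264 to 0.340 among the other settings), and without Xu142 replicate 1 the log2 ratio was 2.22.

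Related MYBs of leaf hairs were lower, as were Gh_A05G364100 and Gh_D04G061400. MYB23 (Gh_A06G092800), a close relative of GLABRA 1 and WER, had 70.2, 56.4 and 51.6 normalised reads in Xu142fl, against 194, 162 and 246 in Xu142. All Xu142fl libraries were under the lowest Xu142 library by more than a factor of 2, and the log2 ratio was -1.76 ± 0.22 (SE; adjusted p of 6.94e-12 in the authors' deposited table), which with scaling factors from the listed genes was -0.57 and -0.54 and did not pass. MYB82 (Gh_A08G273400), which acts in Arabidopsis leaf hairs, rested on few reads, 16 in all Xu142fl libraries and 38 in all Xu142 libraries. Its log2 ratio was -1.84 ± 0.61 (SE; adjusted p of 0.0292 in the authors' deposited table), and the refit did not pass (edgeR quasi-likelihood, Benjamini-Hochberg adjusted p = 0.0625, with a range of 0.0535 to 1 among the other settings). No gene named GLABRA 1 or GLABRA 2 was listed.

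Zinc finger protein 6 (Gh_A03G173300), which promotes leaf hair initiation in Arabidopsis, averaged 54.5 ± 4.39 normalised reads in Xu142fl and 25.2 ± 9.99 in Xu142 (SD, n = 3 each), a log2 ratio of 1.11 ± 0.34 (SE). Its refit was near the threshold (edgeR quasi-likelihood, Benjamini-Hochberg adjusted p = 0.0458, with a range of 0.000471 to 0.175 among the other settings), and 1 of 6 fits without 1 library passed. Upstream of WER in the Arabidopsis root lies a receptor-like kinase, STRUBBELIG (also called SCRAMBLED). The listed genes are its relatives, not STRUBBELIG itself, and their own part in epidermal fate is not established. STRUBBELIG-RECEPTOR FAMILY 8 (Gh_A09G057300) averaged 170.4 ± 19.4 normalised reads in Xu142fl and 73.0 ± 17.1 in Xu142 (SD, n = 3 each). STRUBBELIG-RECEPTOR FAMILY 6 (Gh_D10G050700) averaged 982 ± 12.2 in Xu142fl and 2243 ± 781 in Xu142 (SD, n = 3 each), and its log2 ratio of -1.19 ± 0.29 (SE) turned to 0.038 and 0.081 with scaling factors from the listed genes. The zinc finger JACKDAW (Gh_A09G170700), which takes part in Arabidopsis root epidermal patterning, had 266, 282 and 272 normalised reads in Xu142fl, against 162, 109 and 102 in Xu142. Its groups were clearly apart, with a log2 ratio of 1.13 ± 0.22 (SE; adjusted p of 1.11e-06 in the authors' deposited table).

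**Figure D4:**
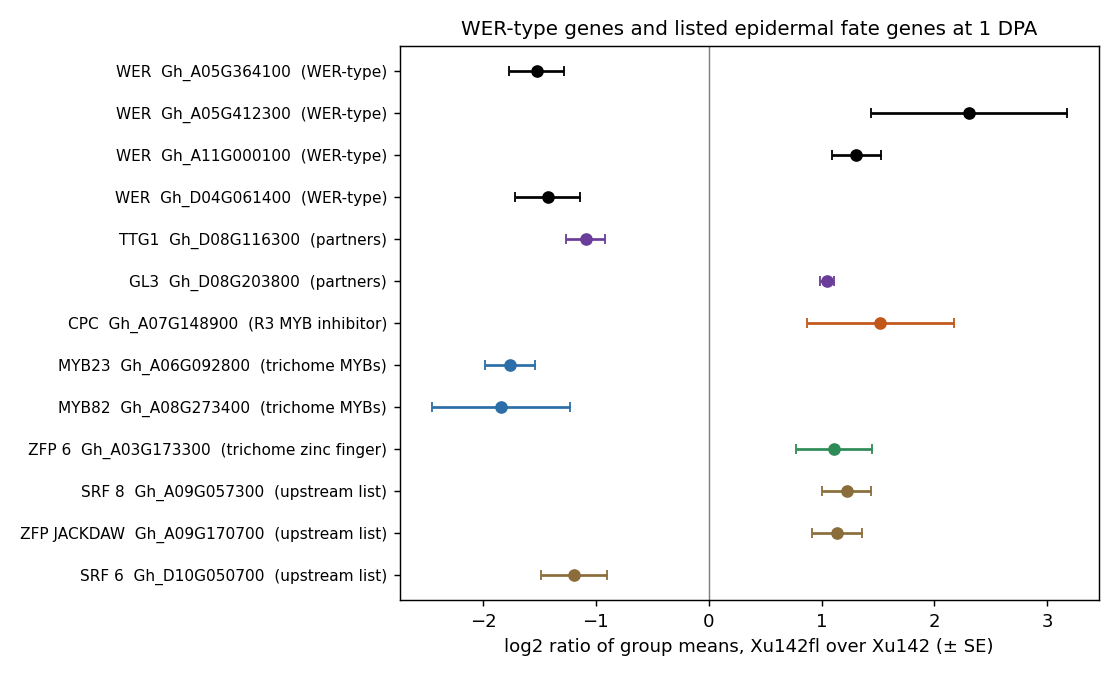
Log2 ratio of group means, Xu142fl over Xu142 (± SE, 3 libraries a group), at 1 DPA for the 4 WER-type genes and the 9 listed genes of the epidermal fate lists. Of the 13 points, 7 lie right of 0 (higher in Xu142fl), and the widest error bars belong to Gh_A05G412300, CPC and MYB82.

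The surroundings of Gh_D04G061400 and Gh_A05G364100 were alike, and the listed neighbours were also lower in Xu142fl at 1 DPA. Lower was the more frequent direction of listed genes on that day, with 7288 lower and 3505 higher. Whether the shared direction is particular to these places was not tested. Downstream of each, on the opposite strand, lies a chloroplast carbonic anhydrase gene, whose product interconverts CO2 and bicarbonate, with gaps of 638 bases on D04 and 784 bases on A05. Upstream of each, also on the opposite strand, lies a GDSL esterase/lipase gene, of a family of lipid-cutting enzymes, with gaps of 36685 bases on D04 and 49678 bases on A05. The genes run in one order with consecutive identifiers. The lipase Gh_D04G061300 had 47.2, 35.9 and 38.0 normalised reads in Xu142fl, against 169.6, 314 and 267 in Xu142, a log2 ratio of -2.63 ± 0.27 (SE). Its counterpart Gh_A05G364200 had 117, 75.8 and 103 in Xu142fl, against 802, 1447 and 1232 in Xu142, a log2 ratio of -3.55 ± 0.30 (SE). Both lipase ratios were larger in size than that of the WER-type gene beside them, a difference that was not tested.

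The carbonic anhydrase Gh_A05G364000 averaged 54.9 ± 25.5 normalised reads in Xu142fl and 239.6 ± 56.9 in Xu142 (SD, n = 3 each), a log2 ratio of -2.13 ± 0.44 (SE), which with scaling factors from the listed genes was -0.92 and -0.89 and did not pass. The copy Gh_D04G061500 averaged 9.49 ± 5.72 in Xu142fl and 27.7 ± 10.1 in Xu142 (SD, n = 3 each), with a log2 ratio of -1.55 ± 0.59 (SE), and the refit did not pass (edgeR quasi-likelihood, Benjamini-Hochberg adjusted p = 0.0907, with a range of 0.0322 to 1 among the other settings). KINESIN LIGHT CHAIN-RELATED 2 (Gh_D04G061200), next in line on D04, rested on 7 reads in all Xu142fl libraries and 22 in all Xu142 libraries, with a log2 ratio of -2.19 ± 0.55 (SE), and passed in 4 of 13 refits (edgeR quasi-likelihood, Benjamini-Hochberg adjusted p = 0.0397, with a range of 0.0152 to 1 among the settings). None of these neighbours was listed at -1 DPA, when Gh_D04G061400 was higher in Xu142fl.

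**Figure D5:**
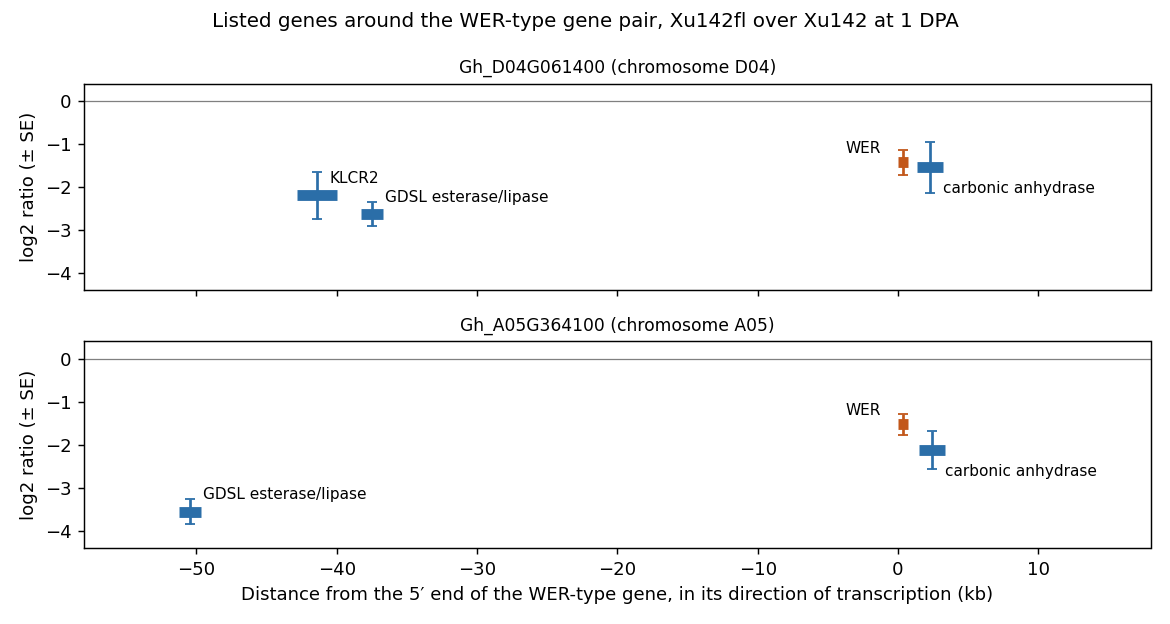
Genes listed at 1 DPA within 100 kb of Gh_D04G061400 (top) and Gh_A05G364100 (bottom), by distance in kb from the 5′ end of the WER-type gene along its direction of transcription (horizontal) and log2 ratio, Xu142fl over Xu142, ± SE of 3 libraries a group (vertical). Thick bars give each gene's span; in both panels a carbonic anhydrase follows the WER-type gene, a GDSL esterase/lipase precedes it, and all lie below 0.

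Near Gh_A11G000100, which was higher in Xu142fl, the listed genes were lower in the deposited table, and 1 of them held in most refits. Lower was also the more frequent direction of all listed genes at 1 DPA. An RNA polymerase subunit 12 gene (Gh_A11G000600), 46886 bases away, had a log2 ratio of -1.99 ± 0.21 (SE) and passed in 13 of 14 refits. Purple acid phosphatase 17 (Gh_A11G001000), a phosphate-releasing enzyme, had a log2 ratio of -1.08 ± 0.42 (SE), which turned to 0.054 and 0.082 with scaling factors from the listed genes, and passed in 3 of 14 refits (edgeR quasi-likelihood, Benjamini-Hochberg adjusted p = 0.0689, with a range of 0.0188 to 1 among the settings). The chloroplast assembly gene CCB3 (Gh_A11G001300) had a log2 ratio of -1.56 ± 0.51 (SE) with overlapping groups, and passed in 1 of 14 refits (edgeR quasi-likelihood, Benjamini-Hochberg adjusted p = 0.0732, with a range of 0.00193 to 1 among the settings). No other listed gene starts within 100 kb of Gh_A05G412300.

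Among genes with a protein name listed at both -1 and 1 DPA, the patterns most like that of Gh_D04G061400 over 12 libraries belonged to 2 xyloglucan endotransglucosylase/hydrolases, enzymes that cut and rejoin wall xyloglucan, and a gamma-glutamyl peptidase. Pearson's r of log2(value + 1), centred per day, was 0.921 for Gh_D02G024500, 0.885 for Gh_D06G173900 and 0.879 for the peptidase Gh_A04G140500, among 318 genes compared. Each was listed as higher in Xu142fl at -1 DPA and lower at 1 DPA. Their log2 ratios were 3.01, 1.35 and 2.44 at -1 DPA, and -3.13, -1.35 and -4.68 at 1 DPA. The call of Gh_D06G173900 at 1 DPA held in 7 of 14 refits, with a log2 ratio of -0.13 and -0.094 under scaling factors from the listed genes, and DESeq2 factors of this kind ended its call (0.24) and that of the peptidase (1.32) at -1 DPA. These points share libraries and the split by genotype.

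For the members listed at 1 DPA alone, r over 6 libraries was above 0.99 for the 3 closest of the 7026 or 7027 named genes compared, which mostly share the split by genotype. Closest to Gh_A05G364100 were the 60S ribosomal protein L18-2 (Gh_D13G201300, log2 ratio of -1.03, which turned to 0.15 and 0.18 with scaling factors from the listed genes), DNA damage-inducible protein 1 (Gh_D05G402500, -2.18) and auxin-induced protein 15A (Gh_D06G088700, -1.89), and under these factors none of the 3 passed. Closest to Gh_A11G000100 were QUIRKY (Gh_D08G240700, log2 ratio of 1.33), a membrane protein that acts with STRUBBELIG in Arabidopsis, EPIDERMAL PATTERNING FACTOR-like protein 4 (Gh_A10G109100, 1.10) and the transporter NRT1/PTR FAMILY 1.2 (Gh_D05G129600, 1.21). Closest to Gh_A05G412300 were the ethylene-responsive transcription factor 1A (Gh_D09G207600, log2 ratio of 1.63), the stress-linked zinc finger ZAT10 (Gh_D05G210600, 2.34) and NDR1/HIN1-like protein 12 (Gh_A05G065500, 1.14). In refits the call held in 8 of 14 for Gh_D09G207600 and in 2 of 14 for Gh_A05G065500 (edgeR quasi-likelihood, Benjamini-Hochberg adjusted p = 0.126, with a range of 0.00257 to 0.408 among the other settings).

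Within the MYB family, WER-type genes were listed in both directions. At 1 DPA 101 genes with an annotated Myb domain were listed, 45 higher in Xu142fl with a median log2 ratio of 1.62 and 56 lower with a median of -2.68. Of the 56 lower ones, 43 had a larger ratio in size than Gh_A05G364100 and 48 a larger one than Gh_D04G061400. Of the 45 higher ones, 29 exceeded Gh_A11G000100 and 13 exceeded Gh_A05G412300. The copies of the MYB108 name, a stress and senescence factor, were all higher (9 of 9), and those of the MYB306 name were 1 higher and 8 lower, beside 2 and 2 for the WER name. At -1 DPA 16 genes with an annotated Myb domain were listed, 5 higher and 11 lower, and Gh_D04G061400 had the highest log2 ratio among these 16. Genes of the family without that annotation are left out. Among them are Gh_D06G015200 (named MYB44, log2 ratio of 3.11 at -1 DPA) and Gh_A12G134600 (named LHY, -3.99). No test of these counts was made, since all sets hold called genes only.

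Listed markers of other cells differed between the genotypes on the same days, as all listed genes do. Over all listed genes, 3505 were higher and 7288 lower in Xu142fl at 1 DPA, and 479 higher and 393 lower at -1 DPA. The splits of the photosynthesis and seed storage lists at 1 DPA lay near that of all listed genes. At 1 DPA all 11 listed genes of the pollen list were lower in Xu142fl, with a summed level of 3389 to 4172 normalised reads per library in Xu142fl and 13161 to 19157 in Xu142. Of these 8 were profilins, which bind actin in many tissues, and the anther protein LAT52 averaged 32.6 ± 5.89 in Xu142fl and 147 ± 11.9 in Xu142 (SD, n = 3 each). Of 34 listed photosynthesis genes 13 were higher and 21 lower at 1 DPA, with sums of 445 to 863 in Xu142fl and 1041 to 1198 in Xu142, and at -1 DPA 0 of 8 were higher, with sums of 277 to 347 in Xu142fl and 750.3 to 1337 in Xu142. The higher ones at 1 DPA included the listed photosystem II CP43 and CP47 proteins and the Rubisco large chain. The listed Rubisco small chains were all among the lower ones. Of 7 genes of the seed storage list, all late embryogenesis abundant proteins, 3 were higher and 4 lower at 1 DPA, with sums of 333 to 412 in Xu142fl and 556 to 1049 in Xu142. No storage globulin, albumin or oleosin was listed. Their part in the results on WER-type genes was not tested. Ovule markers that do not differ cannot be seen in tables of called genes. Of those listed at 1 DPA, the seed coat and ovule factor AGL11 (Gh_D05G274800) averaged 1086 ± 194 normalised reads in Xu142fl and 2388 ± 176 in Xu142 (SD, n = 3 each), and the BEL1 homolog (Gh_A08G133500) averaged 55.9 ± 7.98 in Xu142fl and 26.8 ± 3.88 in Xu142 (SD, n = 3 each). The other 12 matches of the ovule list, all higher, were BEL1-like homeodomain proteins, which are relatives of BEL1.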

How the data were processed

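RNA of ovules was sequenced on an Illumina platform, per the labels. None of the aligner, counting tool, use of strand, annotation or genome build is given in the sources used here. The library columns are a deposited signal, read counts per gene divided by 1 factor per library (0.733 to 1.76). Within a tolerance of 0.001, 100% of listed values gave whole reads. Per the file headers, the deposited log2 fold change has Xu142 on top; it is smaller than the log2 ratio of the group means used here. The p-values and adjusted p-values are the authors' deposited ones. The number of tested genes was recovered from their ratio. Replicates come from the sample titles.

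The tables hold called genes only, so the authors' call stands as the result. Recovered reads were refitted with edgeR 4.0.16 (quasi-likelihood), DESeq2 1.42.0 and limma 3.58.1 on log2(value + 1) or log2(value + 0.1), in R 4.3.3, on all listed genes, adjusted over the number of genes tested (the interaction over its 700 genes). Other factors, a mean of at least 10, a replicate block and leaving out each library were alternatives. The scripts were tested on simulated data. Named genes are the members, all list genes, listed genes starting within 100 kb, and the 3 named genes with the highest r to a member. Members and lists were chosen with earlier results of these data known.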

Additional observations from a re-analysis of the deposited data

Results flagged for a closer look

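Gh_D04G061400 was set apart because the genotype difference itself differed between the days. Its log2 ratio, Xu142fl over Xu142, was 1.75 at -1 DPA and -1.43 at 1 DPA, a difference of -3.19 in the interaction fit (edgeR quasi-likelihood, Benjamini-Hochberg adjusted p = 2.48e-07, with a range of 7.42e-11 to 1.05e-05 among the other settings). All 6 libraries of each day were separated by genotype, in opposite directions. The gene could be fitted because it was listed on both days, which required a difference on each.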

How the results depend on the processing

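With the authors' factors, the calls of Gh_A11G000100, Gh_A05G364100 and Gh_D04G061400 on each day passed in the refits with edgeR, DESeq2 and limma, with a mean of at least 10, with the block and without any 1 library. Most listed genes did so, since they were selected on the same reads. With edgeR 872 of 872 passed at -1 DPA and 10130 of 10793 at 1 DPA, so a pass is no independent support. Factors taken from the listed genes treat most of these genes as unchanged, although all were called. Values under such factors thus cannot decide a direction. They shift the median log2 ratio, TMM by -0.18 at -1 DPA and 1.20 at 1 DPA, DESeq2 by -1.11 and 1.24. With them Gh_A05G364100 had -0.35 (TMM) and -0.32 (DESeq2) and Gh_D04G061400 -0.26 and -0.23 at 1 DPA, and DESeq2 factors gave Gh_D04G061400 0.64 at -1 DPA, none passing, so that 0 members were called lower at 1 DPA and, under DESeq2 factors, 0 higher at -1 DPA. The log2 ratio of Gh_A05G412300 did not pass with edgeR (2.32), DESeq2 (2.34) or limma (2.34 and 3.56); it ran from 1.69 to 3.45 when 1 library was left out and passed without Xu142 replicate 3. It also passed with TMM (3.50) and DESeq2 (3.54) factors from the listed genes, which left 2 members called higher. With the authors' factors, members called higher at 1 DPA thus numbered 1 with edgeR, DESeq2 and limma. The number was also 1 with a mean of at least 10, which Gh_A05G412300 misses. It was 2 with the replicate block and 1 to 2 without 1 library. Of the 5 higher epidermal fate genes, 3 were called by limma with a pseudocount of 0.1 and with a mean of at least 10, and 3 to 4 without 1 library; of the 4 lower ones, 2 by that limma fit and 0 with either set of factors from the listed genes. In an alternative chosen after seeing the data, the summed level of the members at 1 DPA, with a log2 ratio of -0.95, turned to 0.23 (TMM) and 0.26 (DESeq2) with such factors. They also turned TTG1 (0.10, 0.14), STRUBBELIG-RECEPTOR FAMILY 6 (0.038, 0.081), purple acid phosphatase 17 (0.054, 0.082) and L18-2 (0.15, 0.18). The difference of Gh_D04G061400 between days ran from -3.45 to -2.24.

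Samples with the same replicate number did not deviate together at -1 DPA (r of 0.0060 to 0.040) or 1 DPA (-0.024 to 0.070), so the numbers were not taken to pair them on these days. At 0 DPA, when no member was listed, r was 0.168, 0.101 and 0.201 for the numbers 1, 2 and 3. With the replicate block Gh_A05G412300 passed (log2 ratio of 2.36), and the other member calls were kept. Low reads limit Gh_A05G412300, MYB82 and Gh_D04G061200.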
